A study of Rattus norvegicus with 12 samples.

Results

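Of 22701 long noncoding RNA (lncRNA) transcript rows measured in fetal rat spinal cord, 643 (2.83%) were close to absent in 1 library and plainly present in another. A row belonged to this set where it had 2 or fewer raw counts in at least 1 of 6 libraries and 20 or more in at least 1 other. The rows were chosen by these raw counts, so the counts are given as a description and carry no test. Among the 12863 rows that reached 20 counts anywhere the set made up 5.0%, while 8720 rows reached 20 counts in every library.

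The libraries came from the lumbosacral spinal cord of Wistar rat fetuses on embryonic day 17. There were 3 from normal fetuses and 3 from fetuses with anorectal malformations (ARM), which had been induced with ethylenethiourea (ETU), a teratogen given to the dam. No group with ETU and without ARM is among the labels, so the malformation and the exposure to ETU cannot be told apart. The labels do not say whether a library is 1 fetus or a pool, nor how many litters were used, so the p-values speak only of the spread among these 6 libraries, which may be technical. The series also holds 6 miRNA libraries, which were not used here.

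LncRNAs are transcripts with no long coding frame, and many lie within, beside or opposite coding genes. 1 gene can give several isoforms through other start sites, splice sites and ends, and catalogues such as NONCODE and Ensembl list each isoform under an identifier of its own. Programs that assemble transcripts from the reads add further isoforms, here the identifiers that begin with MSTRG. Where isoforms overlap, a read can fit more than 1 of them, and how such reads were assigned here is not given. The deposited positions give only a span, with no strand or exons, so reads of overlapping, near-identical or antisense rows cannot be told apart. Rows are called by the name in the table without its release suffix. A name such as Lca5.c places a row at a coding gene and does not make it that gene's mRNA.

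Total lncRNA counts ran from 3017868 in normal 1 to 4549756 in normal 3. At these depths 2 counts were worth 0.442 to 0.675 CPM (counts scaled per library total) and 20 counts 4.42 to 6.75 CPM. A count of 0 allows up to 3 counts, or 0.664 to 1.01 CPM, by counting error alone. ARM 3 stood apart by its haemoglobin row, with 675 counts against 7 to 16 in the other 5 libraries. Without ARM 3 the rule found 551 rows, and without each of the other libraries in turn 546 to 582. The lists of cord neuron markers summed to 673 to 1214 counts over 4 rows, cartilage, bone and meninges to 90 to 336 over 8, sensory ganglion to 1509 to 2480 over 2, endothelium and microglia to 79 to 174 over 4 and muscle to 0 to 7 over 2, and no row carried the name of an epithelial marker. The 18 rows named after spinal neuron genes and their factors summed to 5949 to 10002 counts in the normal libraries, and to 2621 to 3856 in the ARM libraries. The cord neuron markers overlapped between the groups, with 736, 1143 and 1214 counts in normal 1 to 3 and 1033, 892 and 673 in ARM 1 to 3. These sums are not scaled to library totals, and the share of single genes in them is not given. The part of these lists in the results was not tested. In bulk tissue, fewer cells of a type and less RNA per cell cannot be told apart.

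The rows ran from faint to very abundant. The highest count had a median of 64, and 359 of the 643 rows reached 50 counts, 249 reached 100, 99 reached 500 and 59 reached 1000. The lowest count was 0 in 321 rows, 1 in 181 and 2 in 141. At the edge of the rule stood 85 rows whose highest count was 20 to 24, such as Armc5.d with 2, 2 and 20 counts in normal 1 to 3 and 4, 2 and 6 in ARM 1 to 3. Just outside were 188 rows with a highest count of 15 to 19 and 103 rows with a lowest count of 3, among them Nkpd1.a, which reached 19, and keymer.a, which reached 20 but never fell below 3. A further 72 rows had a lowest count of 3 to 5 and a highest of 100 or more.

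Near-absence was spread over all 6 libraries. The number of these rows at 2 or fewer counts was 288, 234 and 212 in normal 1, 2 and 3 and 256, 275 and 297 in ARM 1, 2 and 3. The number at 20 or more was 224, 290 and 317 in the normal libraries and 271, 245 and 217 in the ARM libraries. The 2 shallowest libraries, normal 1 and ARM 3, held the most low rows and the deepest, normal 3, the fewest. A row was low in a single library in 251 cases, in 2 libraries in 126, in 3 in 95, in 4 in 81 and in 5 in 90.

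In 325 rows every library was either at 2 or fewer or at 20 or more counts, with nothing between. Of these, 90 were high in a single library, 55 in 2, 42 in 3, 51 in 4 and 87 in 5. Rows high in 1 library alone numbered 16, 11 and 15 for normal 1 to 3 and 20, 14 and 14 for ARM 1 to 3. Rows low in 1 library alone numbered 23, 11 and 10 for the normal libraries and 10, 15 and 18 for the ARM libraries. No library held most of either kind.

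The 6 libraries can be divided into 3 and 3 in 10 ways, and ARM against normal is 1 of them. The 42 rows high in 3 libraries and low in the other 3 fell on all 10 divisions. ARM against normal had 5 of them, 4 present in the normal libraries alone and 1 in the ARM libraries alone. The other 9 divisions had 1 to 8 rows, with a median of 3, and 2 of them had more than ARM against normal. The division of normal 1, normal 2 and ARM 3 from the rest had 8 rows, and that of normal 1, normal 2 and ARM 1 from the rest had 7. Rows confined to a pair of libraries were found both within and across the groups. These counts too cover only the rows with no middle counts. Those high in just 2 libraries averaged 4.17 over the 6 pairs within a group and 3.33 over the 9 pairs across groups. Their ranges were 1 to 7 and 0 to 7. Those low in just 2 and high in the rest averaged 4.5 within and 2.67 across, with ranges of 3 to 8 and 1 to 5.

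**Figure D1:**
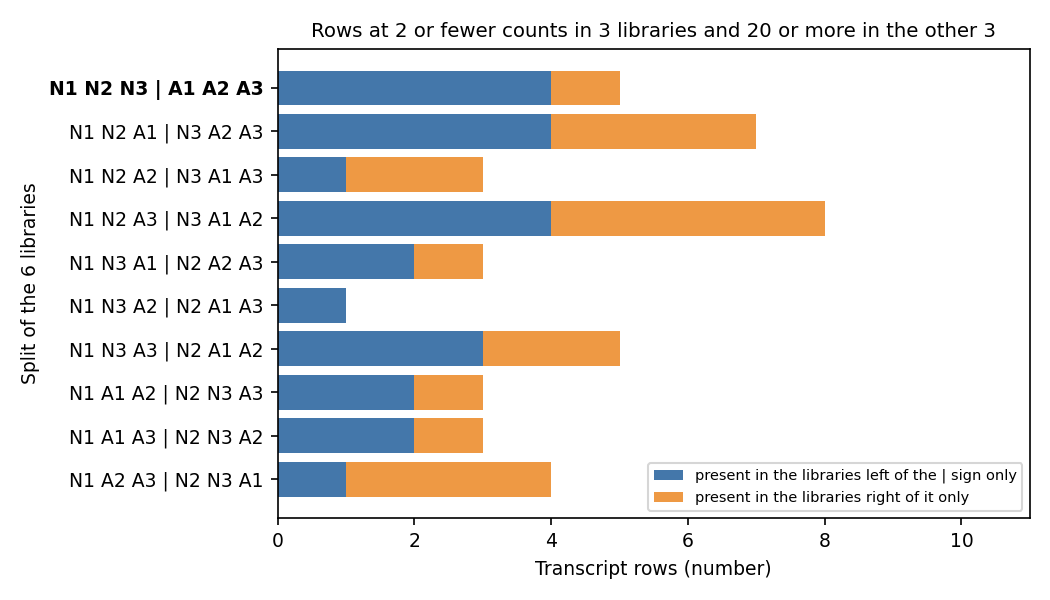
Number of transcript rows (x axis) that were at 2 or fewer counts in 3 libraries and at 20 or more in the other 3, for each of the 10 divisions of the normal (N) and ARM (A) libraries (y axis), with colours giving the side on which the rows were present. The division of ARM from normal, in bold, had 5 rows, and the others had 1 to 8.

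Of the other 9 divisions, 8 are shown here by their most abundant row. The assembled row MSTRG.20537.6 had 2279, 0 and 2083 counts in the normal and 0, 0 and 2336 in the ARM libraries. The row perja.b had 1033, 1663 and 0 counts in normal 1 to 3 and 0, 0 and 1139 in ARM 1 to 3. MSTRG.24494.11 had 823, 0 and 1446 in the normal libraries and 0, 342 and 0 in the ARM libraries. Such divisions require both groups to hold low and high libraries, and in these 3 rows every low library was at 0. MSTRG.9245.10 had 1, 1653 and 140 counts in normal 1 to 3 and 1, 0 and 1397 in ARM 1 to 3. MSTRG.9245.37, of the same assembled gene but with no overlap of spans, had 969, 1 and 1 in the normal libraries and 0, 1983 and 636 in the ARM libraries. MSTRG.13707.34 had 0, 0 and 432 in the normal libraries and 0, 788 and 1626 in the ARM libraries. These 3 assembled rows each took a different division. At lower counts, plochy.b had 145, 0 and 243 in normal 1 to 3 and 152, 0 and 0 in ARM 1 to 3, and MSTRG.1965.2 had 0, 1 and 45 against 167, 1 and 132. These 8 rows were chosen from divisions other than ARM against normal, so by definition neither group was uniformly high or low in them.

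A direct comparison of ARM with normal cord was made over the whole table with edgeR's quasi-likelihood test. Of 13584 rows tested, 7 (0.0515%) passed an adjusted p of 0.05, and 6 of these 7 belonged to the set described here, 5 lower and 1 higher in ARM. The rule used these same counts, so this share is a description. Only 366 of the 643 rows (56.9%) passed the filter on low counts. The ARM and normal libraries did not overlap in CPM in 49 of the 643 rows (7.62%), 28 lower and 21 higher in ARM. Over all rows that reached 20 counts the share was 7.53%, so the set was near the background. Among tested rows it was 38 of 366 (10.4%), against 7.78% of all tested rows, but a row that passed the filter only through its high group had to differ.

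The 5 rows called lower in ARM fell to near 0 in all 3 ARM libraries. Nfe2l1.c (NONRATT005942.2, chromosome 10, 84682448 to 84688899, in the deposited coordinates) lies at the gene of a transcription factor that controls proteasome genes. It had 156, 200 and 254 counts in normal 1 to 3 and 1 in each of ARM 1 to 3. The ratio of normal to ARM was 181 (exact 95% interval 61.8 to 882, counting error only; edgeR adjusted p = 1.66e-04). The groups were far apart, and the normal libraries were even. The equal ARM counts cannot be read as evenness, because 454 rows of the table had 1 count in all 6 libraries. The interval rests on 3 ARM counts in all. The row cheegar.a (NONRATT012007.2, chromosome 16, 54083152 to 54087424) had 329, 390 and 313 counts over the normal libraries and 2 in each ARM library. Its log2 fold change was -7.22 (SE 0.28, edgeR adjusted p = 4.06e-04), from 89.4 ± 21.0 CPM to 0.567 ± 0.0515 CPM (SD, n = 3 each). Here and below, SE is derived from the test's F and is not a fitted standard error. At such low counts it can fall below counting error. The ARM SD came from the library totals alone, since the count was 2 in each ARM library. No other row overlapped it.

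Fainter rows behaved likewise. NONRATT005158.2 (chromosome 10, 110422967 to 110424759) had 41, 77 and 70 counts in normal 1 to 3 and 0 in all ARM libraries. It was at least 55.9-fold lower in ARM when the 3 ARM libraries together are given a floor of 3 counts (edgeR adjusted p = 0.032). The call was lost when any 1 normal library was left out, with adjusted p from 0.105 to 0.211, and without the filter on low counts, at 0.0564. Lca5.c (NONRATT028821.2, chromosome 8, 90930866 to 90931644), at the gene of the ciliary protein lebercilin, had 41, 55 and 69 counts in the normal and 3, 2 and 4 in the ARM libraries. Its log2 fold change was -3.97 (SE 0.31, edgeR adjusted p = 0.0124), and the adjusted p was 0.068 without normal 3 and 0.0612 without ARM 1. The groups of both rows were well separated, at lower counts than the first pair.

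MSTRG.9781.2 (chromosome 16, 77737030 to 77757461) had 329, 533 and 247 counts in normal 1 to 3 and 0, 0 and 1 in ARM 1 to 3. The ratio of normal to ARM was 989 (exact 95% interval 177 to 39100; edgeR adjusted p = 0.00868), and the adjusted p was 0.0777 without ARM 3. A second row, MSTRG.9781.1, has the same start and end and differs in length by a single base, 6706 against 6707. It had 508, 439 and 838 counts in the normal and 407, 397 and 1016 in the ARM libraries. The groups of this second row overlapped, and its reads cannot be told apart from those of the called row.

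A locus sum does not depend on how reads were divided among its rows if each read was counted once there. Whether that holds here is not known. A locus is a chain of rows whose spans overlap. The sum of the MSTRG.9781 pair was 837, 972 and 1085 counts in normal 1 to 3 and 407, 397 and 1017 in ARM 1 to 3, so that the groups overlapped, with a log2 fold change of -0.47 (SE 0.42, edgeR adjusted p = 1.00). At Nfe2l1.c, 2 other rows overlapped, and the longer, beenee.a, had 191 to 369 counts in the 6 libraries, with overlapping groups. The locus summed to 131 ± 16.7 CPM in normal and 79.2 ± 7.57 CPM in ARM cord (SD, n = 3 each), without overlap. Its log2 fold change of -0.72 (SE 0.13) had an edgeR adjusted p of 0.759. The row itself averaged 51.3 CPM in normal and 0.284 CPM in ARM cord, and the other 2 rows together 79.8 and 78.9 CPM. The smaller ratio of the locus thus held the fall of the row beside partners that were nearly level.

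Of 11350 loci tested, 4 (0.0352%) were called, all lower in ARM. In 3 of them the only row was NONRATT005158.2, cheegar.a or Lca5.c, with locus adjusted p of 0.0195, 2.43e-04 and 0.00972 in edgeR's quasi-likelihood test. The adjusted p of the first was 0.0716 to 0.117 without any 1 normal library, and that of Lca5.c was 0.0541 without normal 3. Over all loci, 285 met the rule with their sum, 266 of 1 row and 19 of several rows. In 2 of these the sum divided ARM from normal strictly.

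Members of the set were more often assembled rows than the table as a whole. NONCODE rows made up 73.6% of the set and 91.3% of the table, Ensembl rows 3.27% and 4.34%, and assembled rows 23.2% and 4.4%. The rule needs a highest count of at least 20, so shares were compared within bands of the highest count. Of assembled rows with 20 to 49, 50 to 99, 100 to under 200, and 200 or more counts, 14.8%, 14.6%, 10.1% and 16.1% were members. For NONCODE rows the shares were 6.54%, 3.58%, 3.37% and 1.76%. By the mean count over the 6 libraries (under 20, 20 to 99, 100 to under 500, and 500 or more), the shares were lower at higher means in both classes, at 56.0%, 19.5%, 17.2% and 7.61% for assembled rows and 14.9%, 2.82%, 1.2% and 0.846% for NONCODE rows. In the top band of the highest count 114 of 709 assembled and 54 of 3068 NONCODE rows were members. Ensembl rows were few, with 16 of 109 members in the lowest band and 1 of 70 in the highest.

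**Figure D2:**
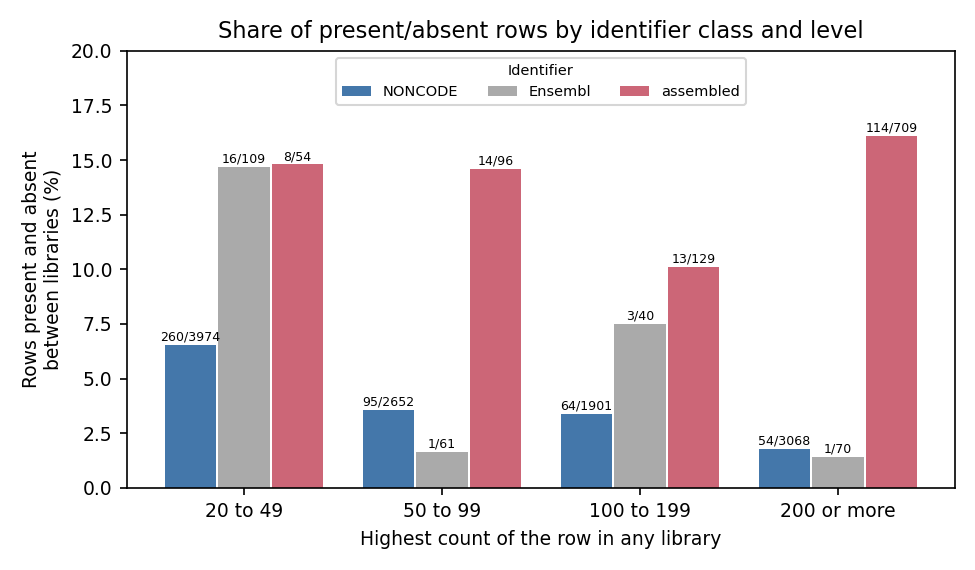
Percent of rows that were near-absent in 1 library and present in another (y axis), by band of the row's highest count (x axis) and class of identifier, with members and rows printed over each bar. Assembled rows stayed between 10.1% and 16.1%, and NONCODE rows went from 6.54% to 1.76%.

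Of the 149 assembled members, 145 shared their gene with another assembled row. Of 653 assembled genes with a single row, 4 were members (0.613%). Of the 346 rows of the 127 assembled genes with several rows, 145 were members (41.9%), and 92 of these genes held at least 1. The same held by overlap of spans. Assembled rows alone in their locus were members in 0.575% of cases, those in a locus of 2 rows in 41.4% and those in larger loci in 25.3%. For NONCODE rows these shares were 3.3%, 5.71% and 5.66%. Over all classes, 266 of the 643 members (41.4%) were alone in their locus, against 66.0% of the rows that reached 20 counts.

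Span differed by class. The median span of NONCODE members was 3049 bases, against 1434 in all NONCODE rows that reached 20 counts. It was 10664 against 9211 bases for assembled and 3642 against 5605 for Ensembl rows, and 4433 against 1645 over all classes, whose mix differed. Among NONCODE rows the share of members was 2.6% for spans under 1000 bases, 3.67% for 1000 to under 5000, 7.17% for 5000 to under 20000 and 7.88% for 20000 or more. For assembled rows these shares were 16.2%, 11.9%, 15.6% and 17.5%, with no steady rise. NONCODE rows whose name marks them as unspliced were members in 146 of 5821 cases (2.51%) and the other NONCODE rows in 327 of 5774 (5.66%). By chromosome, the share ran from 2.58% on chromosome 14 to 7.79% on the X chromosome, where 30 of 385 rows were members. Names of coding genes were carried by 221 members (34.4%), against 38.2% of the rows that reached 20 counts.

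In the 377 members that shared a locus, the row moved far more between libraries than the locus did. The range of a row is its highest over its lowest CPM, with counts under 3 set to 3. Its median was 28.5 for these rows (quartiles 11.9 and 172) and 1.82 for the sums of their loci (quartiles 1.49 and 2.99). The locus sum ranged under 2-fold for 220 rows (58.4%) and under 3-fold for 283 (75.1%), and reached 20 counts in every library for 307 (81.4%). It varied 10-fold or more for 34 rows (9.02%), and met the rule itself for 18 (4.77%). Assembled rows had a median range of 195 and a locus median of 1.7, NONCODE rows 14.8 and 2.01. Loci of several rows without any member had a median of 1.51 (n = 1934), against 1.84 for those with a member (n = 301). The rule chose the wide range of the rows, and the locus sum contains the row, so these are descriptions.

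**Figure D3:**
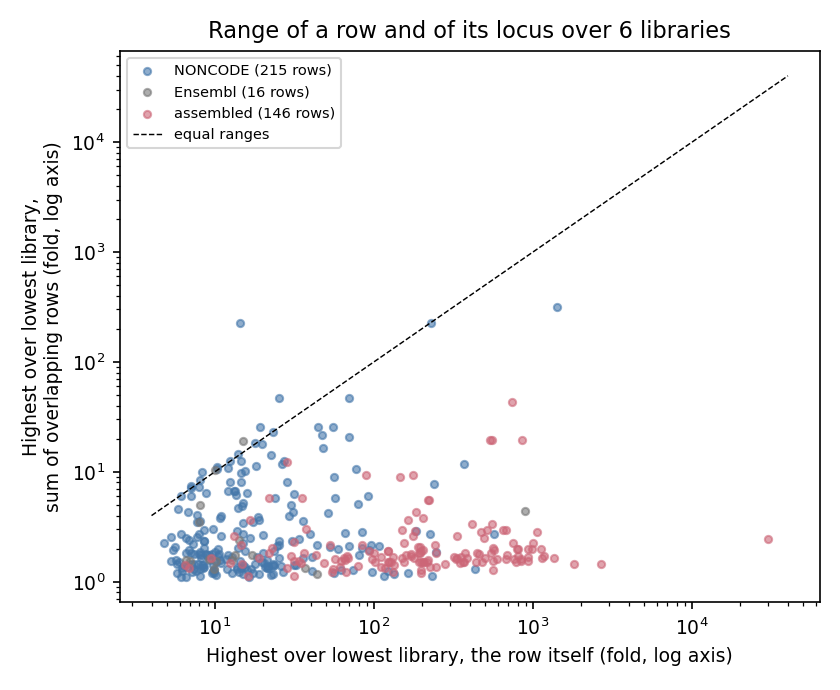
Range over the 6 libraries, highest over lowest CPM with counts under 3 set to 3, of each member row that shares a locus (x axis, log scale) and of its locus sum (y axis, log scale), coloured by class of identifier. Most of the 377 points lie far below the dashed line of equal ranges, with medians of 28.5 for rows and 1.82 for loci.

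Partner rows were more often higher than lower where the member was low, most of all at assembled rows and by little at NONCODE rows. In 248 of 363 members with partners of at least 20 counts (68.3%), the summed partners were higher in the libraries where the member was low. The share was 115 of 203 (56.7%) for NONCODE, 10 of 14 (71.4%) for Ensembl and 123 of 146 (84.2%) for assembled rows. For rows outside the set, comparing their lowest with their highest library, it was 1686 of 3751 (44.9%). Partners were at least 2-fold higher on the low side of 91 members (25.1%) and on the high side of 10 (2.75%). Outside the set these shares were 6.93% and 5.25%. Some partners were themselves members, chosen by the same rule. Among the 234 members whose locus held no other member, the share was 148 (63.2%), with 90 of 161 NONCODE rows (55.9%) and 52 of 63 assembled rows (82.5%).

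The clearest pairs were assembled isoforms in which single libraries held the other row. MSTRG.6178.3 (chromosome 12, 27156024 to 27176737) had 5070, 7080 and 5477 counts in normal 1 to 3 and 5085, 4367 and 0 in ARM 1 to 3. Its partner MSTRG.6178.6, which ends at the same base, had 0 in all normal libraries and 0, 532 and 5632 in ARM 1 to 3. ARM 3 thus had counts on the second row alone, and the sum ranged only 1.46-fold over the libraries. MSTRG.22647.3 (chromosome 8, 30448774 to 30460578) had 632, 1 and 2094 counts in the normal and 1752, 1745 and 2514 in the ARM libraries. MSTRG.22647.2 had 1266, 2360 and 0 in the normal libraries and 0 in every ARM library. The groups of the first row overlapped in counts. In CPM they were just apart and higher in ARM, with 463.2 in normal 3 against 469.9 in ARM 1, and the row was not called. The sum ranged 1.7-fold with a log2 fold change of 0.08 (SE 0.23, edgeR adjusted p = 1.00).

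Other pairs alternated within both groups. MSTRG.13713.1 (chromosome 2, 231558942 to 231577589) had 1772, 1569 and 1334 counts in normal 1 to 3 and 0, 2206 and 384 in ARM 1 to 3. MSTRG.13713.2, with the same ends and a length of 17067 against 17055 bases, had 529, 0 and 1358 in the normal libraries and 2155, 0 and 2163 in the ARM libraries. Normal 2 and ARM 2 had the first row alone and ARM 1 the second alone, with a sum that ranged 2.26-fold. MSTRG.5563.1 and MSTRG.5563.2 on chromosome 11 had 0 and 1618 counts in normal 1, 699 and 699 in ARM 1, and 1929 and 1 in ARM 3, and their sum ranged 1.61-fold. In all, 22 loci of 2 rows had both rows in the set, 16 of them with 2 assembled rows. In 21 of the 22 no library was low for both rows, and the sum ranged under 2-fold in 14, with a median of 1.79.

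**Figure D4:**
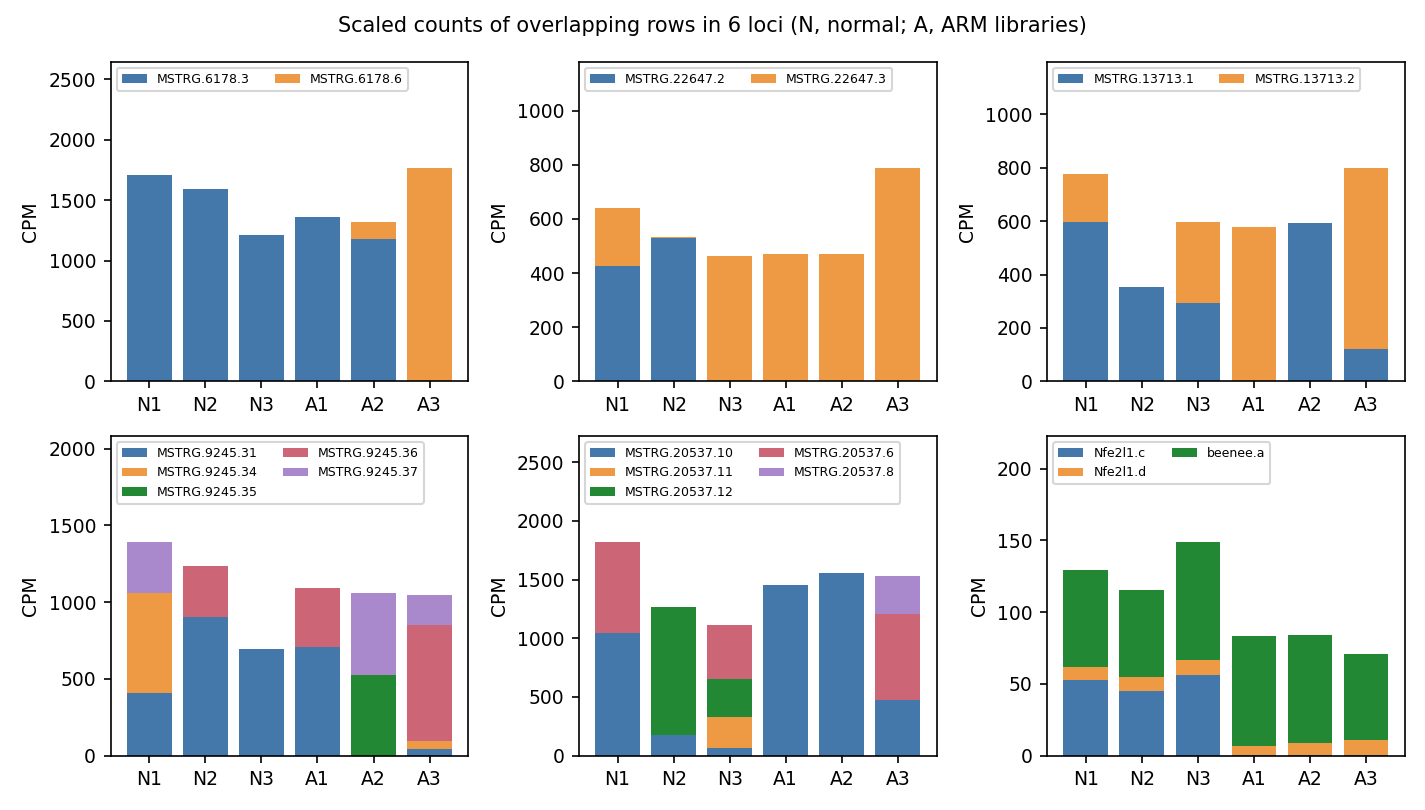
CPM of overlapping rows, stacked by row, in each normal (N1 to N3) and ARM (A1 to A3) library (x axis) for 6 loci. The height of the bars varied 1.46-fold at MSTRG.6178 and up to 2.26-fold elsewhere, while single rows went to 0 in some libraries.

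Loci of 5 assembled rows showed the same with more states. On chromosome 16, from 16900357 to 16922482, MSTRG.9245.31 had 1215, 4015 and 3144 counts in the normal and 2641, 0 and 137 in the ARM libraries. MSTRG.9245.35 had 1956 counts in ARM 2 and 0 elsewhere, and MSTRG.9245.36 had 0, 1485 and 4 in the normal and 1435, 1 and 2408 in the ARM libraries. With MSTRG.9245.34 and MSTRG.9245.37, all 5 rows were members, and the locus summed to 4116, 5501 and 3149 counts in normal 1 to 3 and 4076, 3940 and 3344 in ARM 1 to 3. By the rule none of the 5 was present in all 6 libraries, and the sum ranged 2.0-fold. At MSTRG.20537 on chromosome 6, 4 of 5 rows were members. Its sum ran from 4897 to 5786 counts and ranged 1.63-fold in CPM, although MSTRG.20537.12 had 4859 counts in normal 2, 1475 in normal 3 and 0 elsewhere.

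The highest count of the set belonged to MSTRG.109.8 (chromosome 1, 11906763 to 11907668), with 3176, 108008 and 10722 counts in normal 1 to 3 and 7976, 0 and 4186 in ARM 1 to 3. Its partner MSTRG.109.7, which starts 4 bases earlier, had 75817, 32493 and 113890 in the normal and 98391, 48445 and 54856 in the ARM libraries. The row was absent from ARM 2 and highest in normal 2, and the locus sum ranged 2.43-fold. MSTRG.10711.2 on chromosome 18 had 1687 counts in ARM 1 and 0 in the other 5 libraries, beside MSTRG.10711.1 with 3255, 4648 and 3407 in the normal and 1388, 3306 and 4238 in the ARM libraries. That partner, of the same span, was lowest in ARM 1. MSTRG.1613.2 was likewise at 1450 in normal 2 and at 0 or 1 elsewhere, and its locus ranged 2.48-fold. MSTRG.24494.22, low in ARM 1 alone, had 116, 1733 and 1840 counts in normal 1 to 3 and 0, 1894 and 2717 in ARM 1 to 3. MSTRG.20079.3, low in normal 3 alone, had 172, 474 and 0 against 886, 78 and 1966. Their loci ranged 2.86-fold and 1.54-fold.

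Alternation was not limited to assembled rows. The NONCODE row perja.b, described above, overlapped perja.a (chromosome 15, 11832611 to 11833911), which had 0, 0 and 655 counts in normal 1 to 3 and 514, 562 and 0 in ARM 1 to 3. The 2 rows were never present together, and their sum ranged 2.72-fold. The row plochy.b overlapped Ndrg3.b, with 93, 1133 and 27 counts in the normal and 141, 1125 and 751 in the ARM libraries. Here the partner was high where plochy.b was at 0, and the sum still ranged 5.07-fold.

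Other members had no overlapping row. The row serzu.a (NONRATT020391.2, chromosome 4, 68055527 to 68059250) had 2060 counts in normal 1 and 1 in each of the other 5 libraries. The row farror.a had 1, 1 and 2820 in normal 1 to 3 and 1, 1 and 919 in ARM 1 to 3. High counts thus stood in 1 normal library, or in 1 normal and 1 ARM library, here of the same replicate number. The labels do not say that shared numbers mark shared animals, and the libraries of equal number did not deviate together over the table. MSTRG.5062.7 on chromosome 11 had 0, 2456 and 2276 counts in the normal and 1764, 1943 and 1890 in the ARM libraries. It begins 60 bases after MSTRG.5062.1 ends, and that row, with which it shares an assembled gene, was at 607 CPM in normal 1, 251.6 to 306.4 CPM in normal 2, normal 3, ARM 1 and ARM 2, and 0 in ARM 3. The neighbour was thus highest in the library where MSTRG.5062.7 was at 0. MSTRG.5062.2, which overlaps that neighbour, was not, with 128.7 CPM in normal 1, 0 in normal 2 and 143.5 to 456.0 CPM in the others. The sum of the neighbouring locus was highest in ARM 3, at 795.1 CPM, against 735.8 CPM in normal 1. The 266 members alone in their locus had a median range of 17.4 (quartiles 10.3 and 38.4), up to 1050. Coding transcripts were not analysed here, so reads shared with a coding transcript at the same place were not seen.

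**Figure D5:**
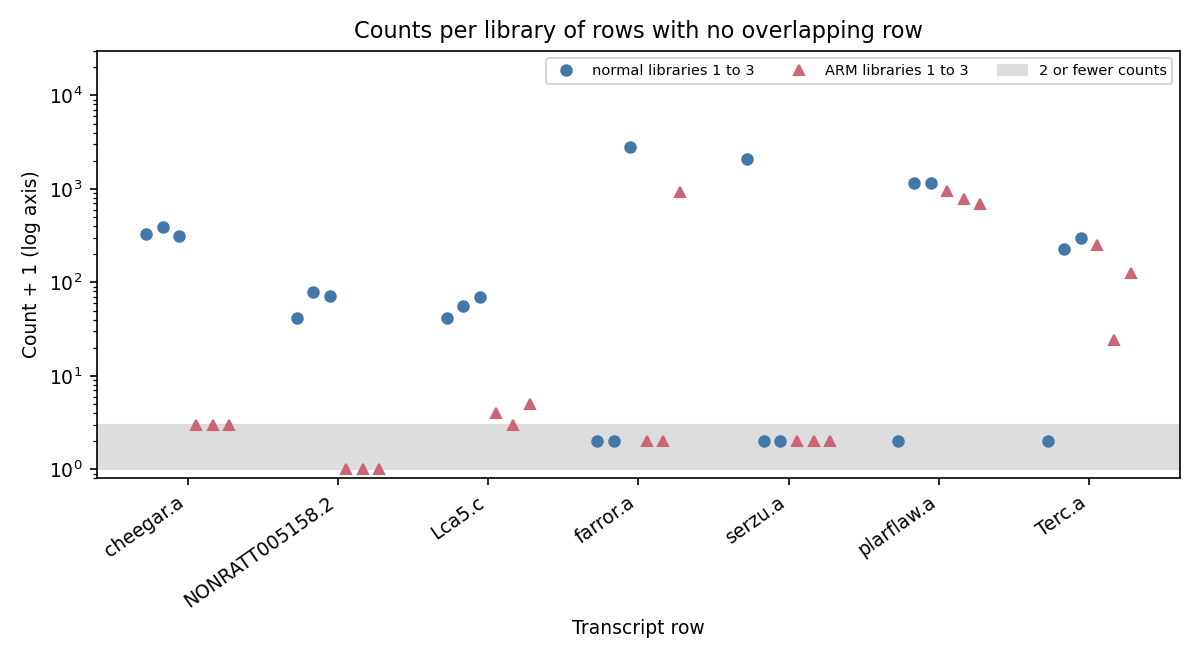
Count plus 1 (y axis, log scale) in each normal (circles) and ARM (triangles) library for 7 rows with no overlapping row, with the grey band marking 2 or fewer counts. The 3 rows at the left divide ARM from normal, and the other 4 are low in 1 to 5 libraries of either or both groups.

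At some loci the sum itself varied widely between libraries. Hnrnpa3.e, at the gene of an RNA-binding protein of the hnRNP family, had 109, 159 and 0 counts in normal 1 to 3 and 71, 68 and 32 in ARM 1 to 3. Its partner Hnrnpa3.c had 7725, 12414 and 305 in the normal and 10439, 11180 and 8509 in the ARM libraries. Both were lowest in normal 3, and the locus ranged 25.5-fold. The other 2 rows of the locus, both members, were highest in normal 3, RGD1561108.a with 162 counts against 1 to 40 elsewhere and RRM_1.2.a with 70 against 1 to 19. MSTRG.12207.4 had 1557 counts in ARM 3 alone, and its locus ranged 43.0-fold, from 11.8 CPM in ARM 1 to 507 CPM in ARM 3.

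Of the rows with no middle counts, 23 were low in normal 1, the shallowest library, alone. The row plarflaw.a had 1, 1158 and 1163 counts in normal 1 to 3 and 942, 777 and 680 in ARM 1 to 3. Rps10.b, at a gene of the small ribosomal subunit, had 1, 325 and 346 in the normal and 296, 261 and 229 in the ARM libraries. Terc.a, named after the RNA template of telomerase (chromosome 2, 116432723 to 116433113), had 1, 228 and 295 in the normal and 253, 23 and 126 in the ARM libraries. All 3 were at 1 count in normal 1, and Terc.a was next lowest in ARM 2. These 3 rows were chosen after their values were seen, and no cause was tested. On the X chromosome, ENSRNOT00000076920 (74333329 to 74334974) had 3, 458 and 2 counts in normal 1 to 3 and 2, 2 and 1887 in ARM 1 to 3. The overlapping NONRATT031073.2 had 7536, 9997 and 8134 in the normal and 6567, 6003 and 20825 in the ARM libraries, so both were highest in ARM 3. That library also had the high haemoglobin row. ENSRNOT00000076920 was next highest in normal 2, where the haemoglobin row had 7 counts. A link between these rows was not tested.

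Members named after genes of the lists are set beside the 5.0% of all rows that reached 20 counts. Differences from that share were not tested, and most lists were short. Of 15 rows named after spinal neuron genes that reached 20 counts, 0 were members, which at 5.0% of all such rows is near the background. Of 5 Hox rows 1 was, Hoxb5.a, with 240 counts in ARM 2 and 1 in each of the other 5 libraries, in a locus of 8 rows whose sum ranged 1.22-fold. Hox genes encode the transcription factors that pattern the body axis. Of 79 rows at splicing and RNA-binding genes 1 was a member (1.27%), Hnrnpa3.e. Of 19 rows of well-known lncRNAs, 2 were, both isoforms of Gas5, the host transcript of small nucleolar RNAs. Gas5.g had 5, 26 and 18 counts in the normal and 13, 6 and 2 in the ARM libraries, and Gas5.h had 1, 17 and 19 against 23, 0 and 6. The 10 rows of that locus summed to 202 ± 22.0 CPM in normal and 200 ± 18.0 CPM in ARM cord (SD, n = 3 each), a log2 difference of -0.01 (SE 0.12).

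In multigene and retroviral families 4 of 109 rows were members (3.67%). Zfp704.a, at a zinc finger gene, had 195, 306 and 2 counts in the normal and 238, 231 and 169 in the ARM libraries, low in normal 3 alone. Hist1h2ail.a, at a histone H2A gene, had 1, 5 and 8 counts in normal 1 to 3 and 154, 54 and 26 in ARM 1 to 3. The groups of the histone row did not overlap, but its log2 fold change of 4.18 (SE 0.76) as a locus had an edgeR adjusted p of 0.759. Histone genes are near-identical copies, so its reads are uncertain. Zfp672.c was absent from normal 2 alone, with 29, 0 and 24 against 31, 10 and 21 counts, and its locus sum ran from 51 to 78 counts. Among markers of other tissues, 2 of 5 cartilage, bone and meninges rows were members, both at the cartilage collagen gene Col2a1. Col2a1.a had 0, 206 and 1 counts in the normal and 77, 53 and 1 in the ARM libraries, and Col2a1.e had 0, 1 and 77 against 1, 2 and 47. The locus had 2 counts in normal 1 and 50 to 213 elsewhere. No member of any list was called in the row fit.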

How the data were processed

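The authors deposited 1 lncRNA table for 6 libraries, with 22701 rows, each with a name, a length and a position. Its values are whole-number counts and FPKM, per the file headers. The deposited FPKM follow from count, length and 1 total per library, and were not tested. The submitters' processing notes name TopHat2 2.0.9, CASAVA 1.8, Cuffdiff and Cufflinks 2.1.1, and the mouse build mm10. The table has 551 rows on chromosome 20, which the mouse lacks, so the coordinates are not of mm10. The sources used here do not give the build, gene models, counting tool or strand setting. Positions are printed as deposited.

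EdgeR 4.0.16 under R 4.3.3 was run on the deposited counts (glmQLFit, glmQLFTest, TMM, filterByExpr, no covariate), over all rows and over all loci. Benjamini-Hochberg adjustment covered all features tested. Rows whose spans overlap by at least 1 base form a locus. CPM are on TMM-scaled totals. The SE of a log2 fold change is its size over the square root of the quasi-likelihood F, not a fitted standard error. Reads have no stated molecular identifiers, so intervals and floors cover counting error only.

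The members and lists were chosen with earlier results of these data known. Named are called members, the highest strict member of each 3 and 3 division, the highest row high or low in 1 library alone, the 5 highest in loci of 1 row and of several rows, up to 3 per list, and their highest partner rows. Other names were chosen after their values were seen, namely Armc5.d, Nkpd1.a, keymer.a, MSTRG.13713, MSTRG.5563, MSTRG.5062.1, other rows of shown loci, plarflaw.a, Rps10.b, Terc.a, ENSRNOT00000076920 with its partner, Arfip1.d, DUF634.1.a and slasha.a. The row called higher in ARM and some rows that this rule names are not reported here.

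On simulated counts the row fit recovered 3 of 95 rows changed 2-fold and 69 of 93 changed 4-fold, with 5 false calls among 13278. The locus fit recovered 24 of 99 and 77 of 93, with 11 false calls among 11142. The simulated counts varied around 1 mean per row and group. No row was built to switch between libraries or to share reads with another. These figures thus do not measure performance on the rows described here. No pair of libraries agreed within sampling noise. Alternatives were DESeq2 1.42.0, RLE size factors, no filter, a replicate block, 1 library left out in turn, other limits of the rule, counts scaled to the mean library total, loci by name stem, and only members whose locus held no other member.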

Additional observations from a re-analysis of the deposited data

How the results depend on the processing

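The size of the set followed its limits: 643 rows became 321 with 0 as the low limit, 1018 with 5, 359 with 50 as the high limit, 541 on counts scaled to the mean library total, and 546 to 582 without any 1 library. The 5 rows dividing ARM from normal became 2 with 0 as the low limit and 11 to 16 without any 1 library, where fewer libraries had to be on their side, and 4 to 6 under the other limits. The 7 rows called became 18 with DESeq2 and 10 to 18 without any 1 library, and the 4 loci called became 17 with DESeq2 and 5 to 17 without any 1 library. The cause was not tested. The share of members whose partners were higher in their low libraries stayed between 68.0% and 72.4% with loci by name stem, RLE size factors and any 1 library left out. It was 63.2% among members whose locus held no other member, a comparison chosen after seeing the data. The median range of their locus sums was 1.7 to 1.77 without any 1 library, the lowest value being without ARM 3, and 1.79 to 1.84 otherwise.

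Libraries of equal replicate number are not stated to be paired, and their deviations from the group means correlated at -0.0003, 0.03 and -0.06. With the replicate block 2 rows and 2 loci were called, and the adjusted p was 1.00 for the row NONRATT005158.2, 0.153 for MSTRG.9781.2 and 0.232 for Lca5.c, and 0.735 and 0.136 for the loci of the first and the last. Nfe2l1.c and cheegar.a stayed past the threshold in every alternative run. Alternatives of the fold change were run for the called members and their called loci alone, and none of these reversed. A count of 0 allows up to 0.664 to 1.01 CPM at these depths, and counts of 1 or 2 allow more.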

Other observations

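Low counts were often equal across libraries of unequal depth. Of the 266 members at 2 or fewer counts in 3 or more libraries, 122 were at 0 in every low library, 38 at 1 and 22 at 2, and in 84 the low counts differed. An equal count of 1 or 2 was found in 56 of 175 NONCODE members and in 2 of 79 assembled members, of which 56 were at 0. Examples are cheegar.a at 2 in each ARM library, Nfe2l1.c at 1 in each and serzu.a at 1 in 5 libraries. Arfip1.d had 396 counts in normal 3 and 2 in each of the other 5, DUF634.1.a had 212 in normal 2 and 2 in each of the others, and slasha.a had 447 in normal 2, 426 in ARM 1 and 1 in each of the others. Over all rows, 557 had the same count in all 6 libraries, 454 of them at 1, 82 at 2, 17 at 3 and 4 at 4 or 5. Of these 557 rows 556 were NONCODE rows, although library totals differed 1.51-fold. The cause was not tested.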
